A study of Mus musculus with 6 samples.

Results

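Interferon response genes were followed in macrophages sorted from mouse ear skin, as a list of 36 genes that interferons are known to induce. The genes are given by name and no measured value enters the rule, but the list was drawn up with earlier results of these data known. Of the 36 genes, 33 were measured by a probe set with a single gene symbol, among 22180 genes measured in that way in all. Where a gene had more than 1 such probe set, the brightest stood for it. Oas1a, Gbp2 and Ifi44 had no such probe set and were not analysed among the 33. All 33 passed the filter on dim genes, which left 15529 genes for the tests.

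The macrophages came from the digested ear skin of C57Bl/6 mice aged 2 weeks with the genotype Cx3cr1+/gfp, in which a green fluorescent protein gene stands in for 1 of the Cx3cr1 alleles and reports its activity. Cx3cr1 encodes the receptor of fractalkine. Every mouse carried this allele, so all samples have a single working copy of Cx3cr1. The cells were sorted into CX3CR1high, CX3CR1int (intermediate) and CX3CR1low subsets, with 2 samples per subset, each pooled from 4 mice, from 2 independent litters. The labels give each sample a replicate number, 1 or 2, without tying a number to a litter.

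Type I interferons, among them interferon beta, bind the receptor pair IFNAR1 and IFNAR2, whose kinases activate STAT2. With IRF9 it is part of a complex that binds the interferon-stimulated response element (ISRE) in the promoters of target genes, and IRF7, itself a target, amplifies the production of interferon. The products of the target genes sense foreign nucleic acids, degrade viral RNA, trap virions or block translation, and macrophages keep many of them at a basal level in tissue.

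The promoters of 6 members are shown here because these genes carried the differences described below or hold the clearest elements. Sequences are from RefSeq (GRCm38.p6), from 250 bases before to 50 bases after the annotated start, 5′ to 3′ on the strand of the gene. Capitals mark the letters GAAANNGAAA, the core of the ISRE, found on either strand, where the other strand reads TTTCNNTTTC.
Ifit1 (chr19:34640639-34640938, plus strand): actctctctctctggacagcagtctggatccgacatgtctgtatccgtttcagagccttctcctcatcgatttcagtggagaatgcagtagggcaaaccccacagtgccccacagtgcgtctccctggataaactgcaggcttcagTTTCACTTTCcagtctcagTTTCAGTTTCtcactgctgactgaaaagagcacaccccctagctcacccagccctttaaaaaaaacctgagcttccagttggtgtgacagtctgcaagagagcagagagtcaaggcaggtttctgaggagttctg
Isg15 (chr4:156200769-156201068, minus strand): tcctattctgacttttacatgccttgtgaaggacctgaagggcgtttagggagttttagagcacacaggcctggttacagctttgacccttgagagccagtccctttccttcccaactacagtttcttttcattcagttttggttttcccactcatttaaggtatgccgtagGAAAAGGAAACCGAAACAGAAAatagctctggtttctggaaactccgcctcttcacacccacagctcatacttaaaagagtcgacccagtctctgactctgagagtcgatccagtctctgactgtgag
Rsad2 (chr12:26456403-26456702, minus strand): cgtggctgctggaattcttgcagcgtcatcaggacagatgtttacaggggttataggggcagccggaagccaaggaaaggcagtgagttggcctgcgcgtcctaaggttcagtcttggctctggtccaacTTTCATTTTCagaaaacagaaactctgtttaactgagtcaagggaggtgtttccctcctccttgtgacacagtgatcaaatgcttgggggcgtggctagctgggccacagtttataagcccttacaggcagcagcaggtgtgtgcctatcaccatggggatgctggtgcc
Stat2 (chr10:128270248-128270547, plus strand): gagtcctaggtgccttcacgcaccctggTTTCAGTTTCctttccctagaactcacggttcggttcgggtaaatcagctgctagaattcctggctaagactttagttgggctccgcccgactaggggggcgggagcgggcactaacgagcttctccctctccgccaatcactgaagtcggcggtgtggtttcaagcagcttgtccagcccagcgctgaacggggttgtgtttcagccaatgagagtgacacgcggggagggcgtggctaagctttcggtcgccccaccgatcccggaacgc
Ifi209 (chr1:173630609-173630908, plus strand): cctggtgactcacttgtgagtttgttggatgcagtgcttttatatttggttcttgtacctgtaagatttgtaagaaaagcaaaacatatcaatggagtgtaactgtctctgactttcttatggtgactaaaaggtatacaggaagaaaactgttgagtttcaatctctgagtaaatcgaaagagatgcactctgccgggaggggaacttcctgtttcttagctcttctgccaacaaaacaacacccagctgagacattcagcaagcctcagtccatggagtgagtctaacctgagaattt
Trim30c (chr7:104400729-104401028, minus strand): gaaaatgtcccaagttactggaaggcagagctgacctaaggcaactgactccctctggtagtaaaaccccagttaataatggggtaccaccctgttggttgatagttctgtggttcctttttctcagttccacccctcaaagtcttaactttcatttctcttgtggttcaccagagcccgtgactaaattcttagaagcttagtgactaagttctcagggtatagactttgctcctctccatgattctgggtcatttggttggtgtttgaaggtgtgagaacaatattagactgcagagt

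Promoter windows were matched for 27 of the 36 genes, 34 windows in all, and none for Dhx58, Ifi204, Mx1, Mx2, Oas2, Parp14, Rtp4, Usp18 and Zbp1. The ISRE core occurred in 14 of these windows (41.2%), against 1131 of 32851 windows of the same length over all genes (3.44%). Ifit1 held 2 cores that begin 104 and 85 bases before the start, and Isg15 held 3 overlapping cores that begin 78, 72 and 66 bases before it. Rsad2 and Stat2 held 1 each, at 120 and 222 bases before the start, and the windows of Ifi209 and Trim30c held none. A match is a description of the letters only.

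The values are log2 signals of the array. The 6 array medians lay between 4.84 and 4.94, and precision rests on 2 arrays per subset. The mean log2 signal of 11 macrophage markers lay at 10.44 and 10.49 in CX3CR1high, 10.39 and 10.08 in CX3CR1int, and 10.27 and 10.28 in CX3CR1low samples. This mean includes Cx3cr1, the gene of the sort, which was highest in CX3CR1high samples (9.51 and 10.55, against 5.87 to 7.05 in the other 4 samples). Of the 11 markers 2 were higher and 9 lower in CX3CR1high than in CX3CR1low cells, with a median difference of -0.10. Only Cx3cr1 was called. As the samples are bulk RNA, fewer cells of a type and less RNA per cell cannot be told apart.

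The interferon response genes differed by replicate number more than genes in general did. In every subset the sample numbered 2 was higher than the sample numbered 1 for most members. These were 29 of 33 in CX3CR1high, 28 in CX3CR1int and 29 in CX3CR1low cells, against 47.5%, 46.8% and 43.3% of all genes, with median differences of 0.36, 0.40 and 0.38 on the log2 scale. Over all genes tested these medians were -0.01, -0.02 and -0.04. For 24 of the 33 members (72.7%) replicate 2 was higher in all 3 subsets, against 12.0% of all genes tested, and no member was lower in all 3, against 16.5% of all genes. Of the variance of a member over the 6 samples, the replicate number took a median of 40.8% and the subset 48.0%, against 13.8% and 41.1% over all genes tested. With 3 subsets and 2 replicate numbers the subset takes more of the variance by design. Each share is therefore to be read against that of all genes, not against the other.

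**Figure D1:**
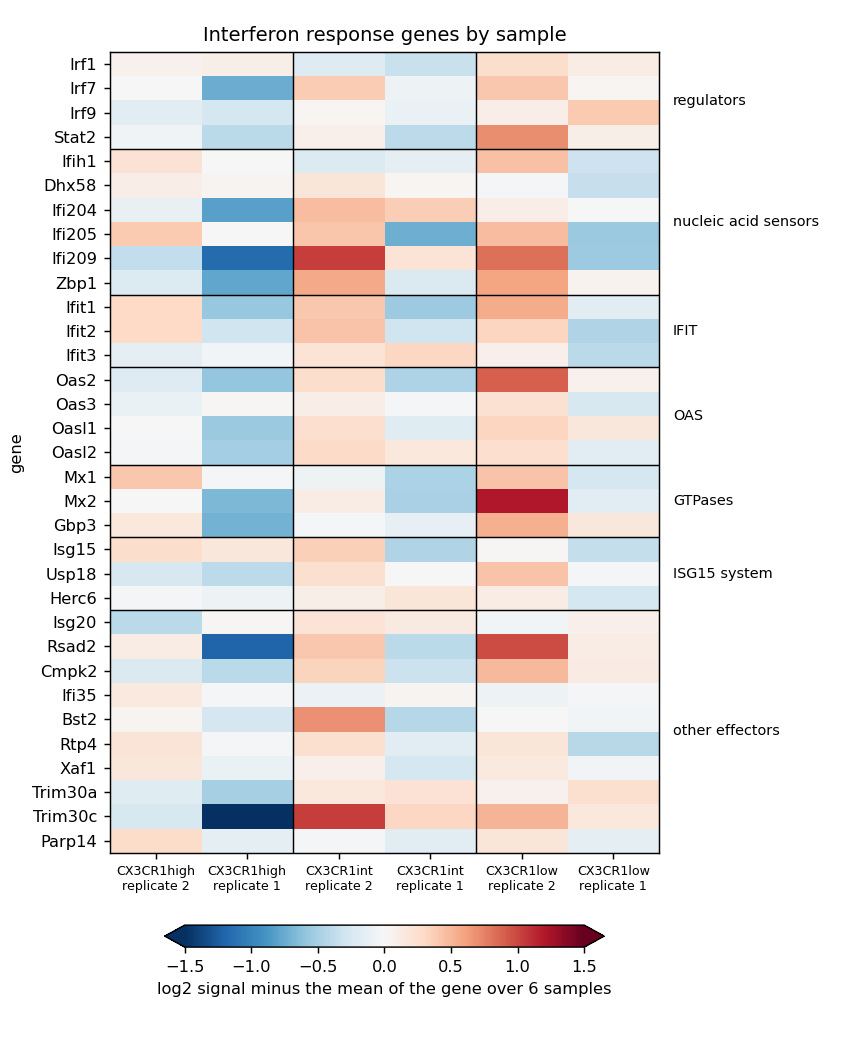
Each row is 1 of the 33 measured interferon response genes, grouped by role, and each column 1 of the 6 samples. The colour gives the log2 signal minus the mean of that gene over the 6 samples (red above, blue below). Most rows are redder in replicate 2 than in replicate 1 of the same subset, and the sample with the lowest median deviation, -0.30, is CX3CR1high replicate 1.

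The difference between replicate numbers was tested in a model with the subset as a factor (limma, two-sided, Benjamini-Hochberg adjustment over all 15529 genes, called at an adjusted p below 0.05). None of the 33 members was called, against 0.0837% of all genes in either direction. At an unadjusted p below 0.05, 18 members were higher in replicate 2 and 0 were lower, against 4.17% and 3.6% of all genes. Averaged over the subsets 30 members were higher and 3 lower, against 43.6% and 55.6% of all genes, and the median difference was 0.40, against -0.03 over all genes tested.

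Among 8 tested ligand genes of the pathway, 3 were higher in replicates 2 and 5 lower, with a median difference of -0.062. Only Ifnb1 of these, which encodes interferon beta and is not a member of the list, was called. It had log2 signals of 10.15, 10.41 and 10.11 in replicates 2 of the CX3CR1high, CX3CR1int and CX3CR1low subsets, against 8.76, 8.81 and 8.80 in replicates 1. The samples of each number thus lay close together, and the 2 numbers did not overlap. Ifnb1 was 2.70-fold higher in replicates 2 (log2 difference 1.43 ± 0.12, SE, limma adjusted p = 0.0035). The call ended when any 1 of the 6 samples was left out, which removes a subset from this comparison, with differences of 1.35 to 1.5 and adjusted p of 0.207 to 0.383. The 3 subsets overlapped for Ifnb1, as the plot of signal by sample shows. Ifnb1 was 1 of 13 genes called by replicate number, 4 of which are on the X or Y chromosome. Another, chosen after its values were seen, was Gbp8, a guanylate-binding protein gene outside the list, which was 3.10-fold higher in replicates 2 (log2 difference 1.63 ± 0.17, SE, adjusted p = 0.0148). Off the X and Y chromosomes the largest difference was that of Rnase2a, 8.30-fold higher in replicates 2 (limma adjusted p = 0.00243). The remaining called genes there were Ccl6, Stfa1, Pgf, Sh2d1b1, Pde7b and Gm4951, all higher in replicates 2.

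**Figure D2:**
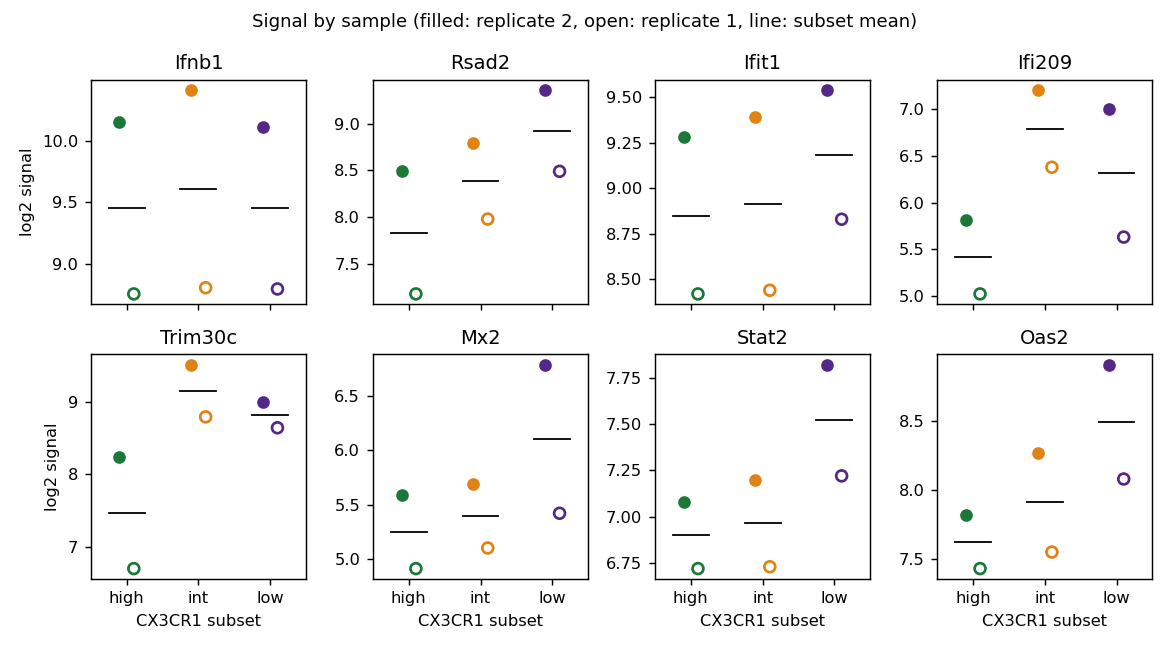
Log2 signal (vertical axes, each with its own range) of Ifnb1 and 7 interferon response genes in the CX3CR1high, CX3CR1int and CX3CR1low subsets. Filled circles are replicates 2, open circles replicates 1 and lines the subset means. Ifnb1 lies between 10.11 and 10.41 in replicates 2 and between 8.76 and 8.81 in replicates 1, with no order among the subsets, while Rsad2, Stat2 and Oas2 have their highest subset mean in CX3CR1low cells.

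Among the IFIT genes, whose products bind viral RNA and block its translation, Ifit1 and Ifit2 followed the replicate number closely. Ifit1 had log2 signals of 9.28, 9.39 and 9.54 in replicates 2 of the CX3CR1high, CX3CR1int and CX3CR1low subsets, against 8.42, 8.44 and 8.83 in replicates 1 (difference 0.84 ± 0.13, SE, adjusted p = 0.0762). Ifit2 had 5.57, 5.71 and 5.60 in replicates 2, against 4.98, 4.98 and 4.82 in replicates 1 (difference 0.70 ± 0.14, SE, adjusted p = 0.191). Neither gene overlapped between the numbers, and the replicate number took 88.2% of the variance of Ifit1 and 96.3% of that of Ifit2. Ifit3, their neighbour on chromosome 19, did not share this. It had 6.53, 6.87 and 6.74 in replicates 2 and 6.62, 6.97 and 6.26 in replicates 1, and was higher in replicate 2 in CX3CR1low cells alone.

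The Ifi200 genes on chromosome 1 encode DNA-binding proteins of the PYHIN family. Ifi205 had 7.79, 7.82 and 7.86 in replicates 2 of the CX3CR1high, CX3CR1int and CX3CR1low subsets, against 7.41, 6.67 and 6.84 in replicates 1 (difference 0.85 ± 0.18, SE, adjusted p = 0.220). Its samples did not overlap between the numbers either. Ifi209 was higher in replicates 2 by 0.997 ± 0.17 (SE, adjusted p = 0.096), with differences of 0.79, 0.83 and 1.37 in the CX3CR1high, CX3CR1int and CX3CR1low subsets. Genes of this cluster resemble each other, so that signal may be shared between them.

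Mx2, a dynamin-like GTPase with antiviral action, had 5.59, 5.69 and 6.79 in replicates 2, against 4.91, 5.10 and 5.42 in replicates 1 of the same 3 subsets (difference 0.88 ± 0.18, SE, adjusted p = 0.207). Its CX3CR1low replicate 2 lay well above all other samples. Mx1, which is defective in most laboratory mouse strains, had 5.02, 4.54 and 5.04 in replicates 2, against 4.59, 4.14 and 4.35 in replicates 1, close to the level of 4.335 under which genes counted as dim. Mx1 samples overlapped between the numbers. The samples of 8 members did not, with all replicates 2 above all replicates 1 (Ifit1, Ifit2, Mx2, Ifi205, Bst2, Rtp4, Xaf1 and Parp14), against 4.21% of all genes tested.

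Other members with a smaller shift included Bst2 (tetherin, which holds virions at the cell surface), with 9.24, 9.88 and 9.20 in replicates 2 against 8.94, 8.77 and 9.15 in replicates 1. In CX3CR1low cells its difference was 0.05 and in CX3CR1int cells 1.11. The members lower in replicates 2 on average were Isg20, an RNA exonuclease (-0.15), Irf9 (-0.02) and Ifi35, an interferon-induced leucine zipper protein (-0.01).

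**Figure D3:**
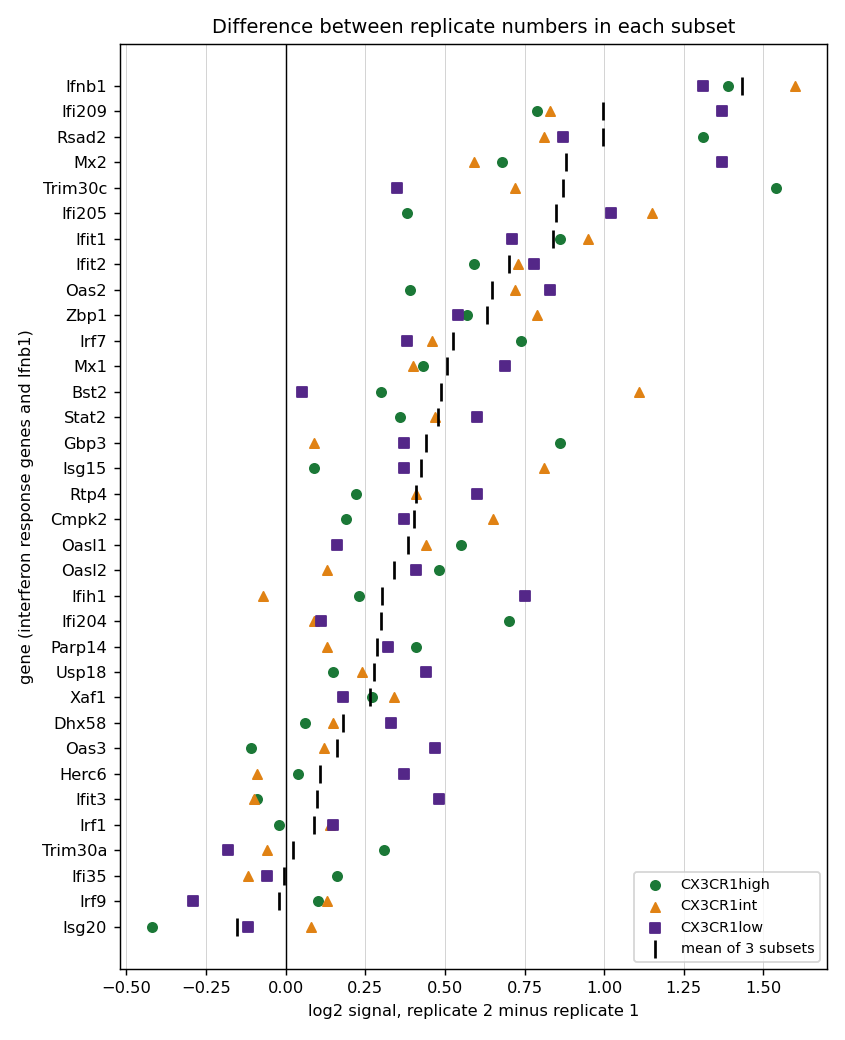
Log2 signal of replicate 2 minus replicate 1 (horizontal axis) in the CX3CR1high (circles), CX3CR1int (triangles) and CX3CR1low (squares) subsets for the 33 interferon response genes and Ifnb1, ordered by their mean over the subsets (bars). Ifnb1 is at the top with a mean of 1.43, and 30 of the 33 members have a mean above 0.

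Several other measures moved with the replicate number. Xist, the transcript of the inactive X chromosome, lay at 10.99 to 11.39 in replicates 2 and 7.39 to 7.97 in replicates 1, and the Y-linked Eif2s3y at 2.99 to 3.72 and 7.76 to 8.27, so the numbers differed in sex composition. All 6 tested monocyte markers of 8 listed were higher in replicates 2, with a median of 1.02 and none called. The mean of the 7 measured monocyte markers was 6.04, 7.38 and 7.10 in replicates 2 of the CX3CR1high, CX3CR1int and CX3CR1low subsets, against 5.69, 6.58 and 5.97 in replicates 1. The mean of 26 measured keratinocyte and fibroblast markers was 6.77, 7.01 and 7.82 in replicates 2 and 6.60, 6.81 and 7.17 in replicates 1. Of 6 tested markers of plasmacytoid dendritic cells, known as strong producers of type I interferon, 3 were higher in replicates 2 and 3 lower, none called. The part of these measures in the replicate difference was not tested. With the keratinocyte and fibroblast mean as a covariate Ifnb1 differed by 1.56 (limma adjusted p = 0.0478) and the members by a median of 0.35. That mean rose with the replicate number in every subset, so their effects cannot be told apart. The covariate also adds a term to a model that left only 2 residual degrees of freedom.

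Between CX3CR1high and CX3CR1low cells most interferon response genes were lower in the CX3CR1high samples, and no difference passed the test. Of the 33 members 22 were lower and 11 higher, against 48.4% and 50.7% of all genes, with a median of -0.325 on the log2 scale, against 0.005 over all genes tested. None was called (limma, adjusted over all genes), against 0.399% of all genes. At an unadjusted p below 0.05, 11 members were lower and 0 higher, against 4.83% and 4.82% of all genes. For 13 members both CX3CR1high samples lay below both CX3CR1low samples (39.4%, against 18.4% of all genes), and for Isg15 and Dhx58 both lay above (6.06%, against 19.8%). Within both replicate numbers 19 members were lower and 4 higher, against 26.8% and 28.7% of all genes.

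**Figure D4:**
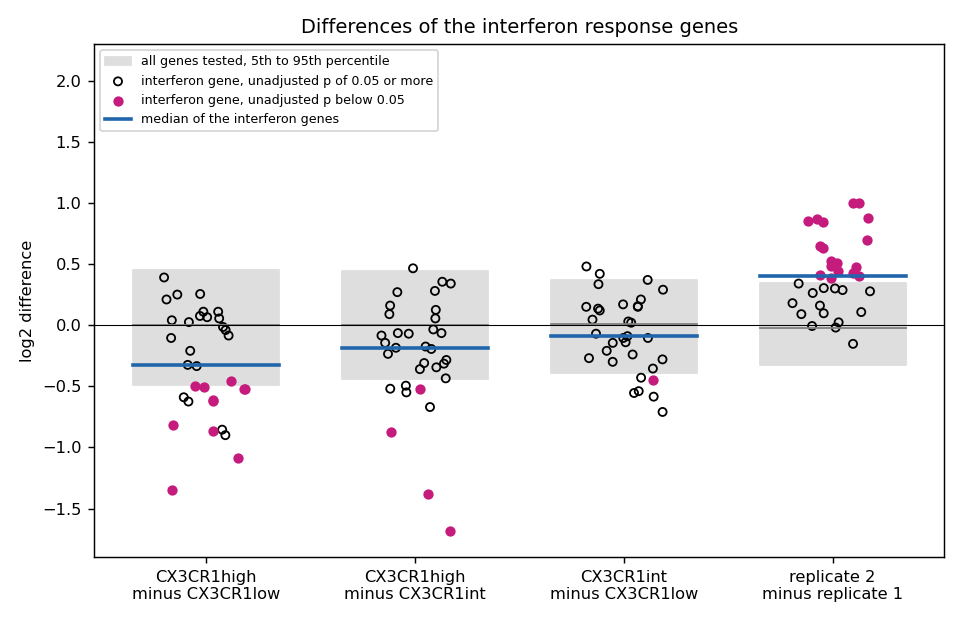
Log2 differences (vertical axis) of the 33 interferon response genes in the 3 comparisons of subsets and between replicate numbers. Each circle is a gene, filled where its unadjusted p is below 0.05, blue lines are the medians of the 33 genes, and grey bands span the 5th to the 95th percentile of all 15529 genes tested. The medians are -0.325, -0.185, -0.09 and 0.40 from left to right.

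Rsad2 encodes viperin, an enzyme that makes a chain-terminating nucleotide and blocks the replication of several viruses. It had log2 signals of 8.49 and 7.18 in CX3CR1high replicates 2 and 1, 8.79 and 7.98 in CX3CR1int, and 9.36 and 8.49 in CX3CR1low samples. Its levels ran in the order of the subsets within either replicate number, and CX3CR1high replicate 2 equalled CX3CR1low replicate 1. Rsad2 was 2.13-fold lower in CX3CR1high than in CX3CR1low cells (log2 difference -1.09 ± 0.45, SE, adjusted p = 0.488). With the replicate number in the model it was called (adjusted p = 0.0356), the single member so called, against 0.992% of all genes, and its differences within replicates 2 and 1 were -0.87 and -1.31. Cmpk2, its neighbour on chromosome 12 and a kinase that supplies nucleotides, had 5.98 and 5.79 in CX3CR1high, 6.52 and 5.87 in CX3CR1int, and 6.68 and 6.31 in CX3CR1low samples, with no overlap between the ends.

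Of the regulators all 4 were lower in CX3CR1high than in CX3CR1low cells, none called. Stat2 had 7.08 and 6.72 in CX3CR1high, 7.20 and 6.73 in CX3CR1int, and 7.82 and 7.22 in CX3CR1low samples (CX3CR1high minus CX3CR1low -0.62 ± 0.26, SE, adjusted p = 0.491). Irf9, the DNA-binding partner of STAT2, had 5.88 and 5.78, 6.07 and 5.94, and 6.14 and 6.43 in the same samples (-0.455). Irf7 had 6.52 and 5.78 in CX3CR1high, 6.90 and 6.44 in CX3CR1int, and 6.93 and 6.55 in CX3CR1low samples (-0.59). For these 3 genes both CX3CR1high samples lay below both CX3CR1low samples. Irf1, which responds mainly to interferon gamma, had 7.18 and 7.20 in CX3CR1high, 6.92 and 6.78 in CX3CR1int, and 7.37 and 7.22 in CX3CR1low samples, and was lowest in CX3CR1int cells. Its CX3CR1high samples also lay below both CX3CR1low samples, by a narrow margin.

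Oas2 and Oas3 encode sensors of double-stranded RNA that switch on RNA decay. Of the OAS and OAS-like genes 4 of the 5 listed were tested, all lower in CX3CR1high than in CX3CR1low cells and none called. Oas2 had 7.82 and 7.43 in CX3CR1high, 8.27 and 7.55 in CX3CR1int, and 8.91 and 8.08 in CX3CR1low samples (CX3CR1high minus CX3CR1low -0.87 ± 0.32, SE, adjusted p = 0.417). Its CX3CR1high samples lay below both CX3CR1low samples. Oasl1, which in the mouse holds back the translation of Irf7, had 9.51 and 8.96 in CX3CR1high, 9.77 and 9.33 in CX3CR1int, and 9.84 and 9.68 in CX3CR1low samples, again without overlap between the ends. Oas3 lay between 5.34 and 5.81 in all 6 samples and differed by -0.04. Zbp1, a sensor of Z-form nucleic acids that triggers cell death, had 6.82 and 6.25 in CX3CR1high, 7.60 and 6.81 in CX3CR1int, and 7.62 and 7.08 in CX3CR1low samples (CX3CR1high minus CX3CR1low -0.815 ± 0.31, SE, adjusted p = 0.443). Gbp3, a guanylate-binding GTPase, had 5.77 and 4.91 in CX3CR1high, 5.58 and 5.49 in CX3CR1int, and 6.15 and 5.78 in CX3CR1low samples.

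The genes around ISG15, a ubiquitin-like protein, did not move together. Isg15 had 8.59 and 8.50 in CX3CR1high, 8.68 and 7.87 in CX3CR1int, and 8.34 and 7.97 in CX3CR1low samples, and its CX3CR1high samples lay above both CX3CR1low samples. Usp18, which removes ISG15 and dampens the interferon receptor, had 5.52 and 5.37, 6.00 and 5.76, and 6.19 and 5.75 in the same samples, the CX3CR1high samples below all others. Herc6, the ligase that attaches ISG15 in the mouse, lay between 6.36 and 6.80 in all 6 samples. The RNA sensors Ifih1 (MDA5) and Dhx58 (LGP2) were 0.04 and 0.255 higher in CX3CR1high than in CX3CR1low cells. Parp14, an ADP-ribosyltransferase, Xaf1, a promoter of apoptosis, and Ifi35 differed by 0.11 or less either way. Rtp4 was 0.21 higher.

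Markers of other cell types moved with this comparison too, in both directions. Dendritic cell markers were mostly higher in CX3CR1high than in CX3CR1low cells (3 of 4 tested, 1 lower, 6 listed). None of them was called, save Ccr7, higher, with the replicate number in the model. Markers of T and NK cells went the same way (3 of 4 tested, 1 lower, 7 listed), none called. More lists went the other way, none of their genes called with or without the replicate number in the model. Of 6 tested plasmacytoid dendritic cell markers 5 were lower in CX3CR1high cells and 1 higher. All 4 tested endothelial markers were lower, as were 4 of 5 tested neutrophil markers and 2 of 3 Langerhans cell markers. Of 15 tested keratinocyte markers of 16 listed 14 were lower in CX3CR1high than in CX3CR1low cells and 1 was called (2 with the replicate number in the model), and of 11 tested fibroblast markers of 12 listed 10 were lower and none was called (5 with the replicate number). Of the 6 tested monocyte markers 4 were lower and none was called (2 with the replicate number, Ly6c2 and Gda). Of 5 tested mast cell markers of 6 listed all 5 were lower, with a median of -1.865, and 3 were called (Cpa3, Mcpt4 and Cma1). The mean of the 6 measured mast cell markers was 4.51 and 4.59 in CX3CR1high, 5.50 and 5.545 in CX3CR1int, and 5.755 and 6.18 in CX3CR1low samples, and these markers were lower, none called, in replicates 2 than in replicates 1 (5 of 5). The part of the markers other than those of keratinocytes and fibroblasts in the difference was not tested. The keratinocyte and fibroblast mean by sample is given above and was highest in CX3CR1low replicate 2, which was also the sample in which most members, 30 of 33, exceeded their own mean. With that mean as a covariate the median of the members turned to 0.36. The covariate also follows the replicate number within each subset, so that their effects cannot be told apart. Without CX3CR1low replicate 2 the median was -0.12 and without CX3CR1high replicate 1 it was -0.115, while within replicates 2 and 1 it was -0.26 and -0.36.

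Between CX3CR1high and CX3CR1int cells the members were again mostly lower in the CX3CR1high samples. Of 33 members 24 were lower and 9 higher, against 49.3% and 49.8% of all genes, with a median of -0.185 against 0 over all genes tested. Trim30c, Ifi209 and Ifi204 differed most. None was called without the replicate number in the model, against 0.142% of all genes, and with it 2 were called, Ifi209 and Trim30c, both lower, against 0.303% of all genes in either direction. At an unadjusted p below 0.05, 4 were lower and 0 higher, against 3.71% and 4.17% of all genes. The CX3CR1high samples serve both comparisons, which are therefore not independent.

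Trim30c is a gene of the Trim30 cluster on chromosome 7, whose members resemble each other. It had log2 signals of 8.24 and 6.70 in CX3CR1high replicates 2 and 1, 9.51 and 8.79 in CX3CR1int, and 8.99 and 8.64 in CX3CR1low samples. Both CX3CR1high samples lay below all others. Trim30c was 3.20-fold lower in CX3CR1high than in CX3CR1int cells (log2 difference -1.68 ± 0.44, SE, adjusted p = 0.333, and 0.0477 with the replicate number in the model), with differences of -1.27 and -2.09 within replicates 2 and 1. Against CX3CR1low cells its difference was -1.345 ± 0.44 (SE, adjusted p = 0.353). Its neighbour Trim30a, a restraint on NF-kappaB signalling in the mouse, had 4.99 and 4.68 in CX3CR1high, 5.33 and 5.39 in CX3CR1int, and 5.24 and 5.42 in CX3CR1low samples, also with both CX3CR1high samples lowest.

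Ifi209 had 5.81 and 5.02 in CX3CR1high, 7.21 and 6.38 in CX3CR1int, and 7.0 and 5.63 in CX3CR1low samples. It was 2.60-fold lower in CX3CR1high than in CX3CR1int cells (log2 difference -1.38 ± 0.46, SE, adjusted p = 0.472, and 0.0389 with the replicate number in the model), with differences of -1.4 and -1.36 within replicates 2 and 1. Its CX3CR1high samples lay below both CX3CR1int samples and overlapped the CX3CR1low samples. Ifi204, a PYHIN sensor of DNA in the mouse, had 9.63 and 8.93 in CX3CR1high, 10.20 and 10.11 in CX3CR1int, and 9.84 and 9.73 in CX3CR1low samples, with the 3 subsets free of overlap. Its difference between CX3CR1high and CX3CR1int cells was -0.875 ± 0.22 (SE, adjusted p = 0.291). For Irf1, Mx1 and Ifih1 both CX3CR1high samples lay above both CX3CR1int samples, 9.09% of the members against 18.3% of all genes, and for 10 members both lay below (30.3%, against 18.5%). Within both replicate numbers 19 members were lower and 5 higher, against 27.3% and 27.6% of all genes. Of the monocyte markers 5 of 6 were lower in CX3CR1high than in CX3CR1int cells and 1 was called, with their mean by sample given above. All 5 tested mast cell markers were lower and 1 was called, Cpa3 (2 with the replicate number in the model). The part of these markers in the difference was not tested. With the keratinocyte and fibroblast mean as a covariate the median of the members was -0.006, with 16 higher and 17 lower. Without CX3CR1int replicate 2 it was 0.015, without CX3CR1high replicate 1 it was -0.04, and within replicates 2 and 1 it was -0.19 and -0.11.

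Between CX3CR1int and CX3CR1low cells the members showed no common direction, with 15 higher and 18 lower in CX3CR1int cells, against 51.4% and 47.6% of all genes, and a median of -0.09, against 0.01 over all genes. None was called with or without the replicate number in the model, against 0.00644% of all genes without it and 0% with it. At an unadjusted p below 0.05 only Irf1 stood out, with a difference of -0.445 ± 0.17 (SE, adjusted p = 0.996). That is 1 member lower and 0 higher, against 2.67% and 2.21% of all genes. Within both replicate numbers 16 members were lower and 9 higher, against 22.8% and 25.8% of all genes. For Irf1, Irf9, Stat2 and Gbp3 both CX3CR1int samples lay below both CX3CR1low samples, and for Ifit3, Isg20, Dhx58 and Ifi204 both lay above, 12.1% of the members in either direction against 14.8% and 16.6% of all genes. Without CX3CR1low replicate 2 the median was 0.12, and without CX3CR1int replicate 1 it was 0.105.

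The rest of the pathway was followed in 118 further genes, of which 98 were tested and none was called between subsets without the replicate number in the model. Of all genes 0.399% were called so between CX3CR1high and CX3CR1low cells, where 50.7% were higher and 48.4% lower in CX3CR1high cells. Of 9 receptor and kinase genes 8 were higher in CX3CR1high than in CX3CR1low cells, Jak2, a kinase of the interferon gamma receptor, by 0.78 (adjusted p = 0.158) and the receptor chain gene Ifngr2 by 0.42. The type I receptor genes lay within a narrow range, Ifnar1 at 9.17 to 9.5 and Ifnar2 at 10.32 to 10.49 over all 6 samples. Of 8 tested ligand genes 4 were higher and 3 lower, and the type III interferon gene Ifnl2 was 0.81 higher (adjusted p = 0.221) and Ifnk, a type I interferon of keratinocytes, differed by -0.315. Among sensors and adaptors 8 of 12 were lower, with Sting1, the adaptor of DNA sensing, at -0.44, while the kinase gene Ikbke was 0.73 higher. The transcription factor genes Irf3 and Nlrc5, a regulator of MHC class I genes, differed by 0.545 and -0.515. Of the 7 inhibitors 4 were higher, Ptpn6 by 0.465 and Socs3 by 0.385.

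The 56 tested further interferon-induced genes resembled the members in direction. In CX3CR1high against CX3CR1low cells 43 were lower and 13 higher (median -0.16), against 48.4% and 50.7% of all genes. In replicates 2 against replicates 1, 45 were higher and 11 lower (median 0.26), against 43.6% and 55.6% of all genes. With the replicate number in the model 2 of them were called between CX3CR1high and CX3CR1low cells, in opposite directions, against 0.992% of all genes. Ifitm3, which blocks the entry of viruses, had 10.21 and 9.84 in CX3CR1high, 11.16 and 10.67 in CX3CR1int, and 11.07 and 10.82 in CX3CR1low samples, with a difference of -0.92 (adjusted p = 0.131, and 0.018 with the replicate number). Cxcl10, a chemokine for T cells, had 9.80 and 9.29, 8.89 and 8.52, and 8.78 and 8.17 in the same samples, and was 1.07 higher (adjusted p = 0.181, and 0.0239 with the replicate number). Ifitm3 was also called against CX3CR1int cells with the replicate number in the model (-0.89, adjusted p = 0.0343), where 0.303% of all genes were called. Ms4a4c, a membrane protein gene, differed by -0.955 between CX3CR1high and CX3CR1low cells and was not called. Neither Ifitm3 nor Cxcl10 overlapped between CX3CR1high samples and the other 4. For 18.4% of all genes both CX3CR1high samples lay below both CX3CR1low samples, and for 19.8% both lay above.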

How the data were processed

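Gene expression was measured on an Affymetrix array in 6 samples of sorted macrophages, after whole-transcriptome amplification per the labels' protocols. The deposited log2 values were used as given. The submitters' processing notes name RMA and Affymetrix Expression Console 1.4. Of 34390 probe sets 23521 carried 1 gene symbol, 1814 several and 9055 none, and 0 columns were left unused. The brightest probe set stood for a gene, and genes with a mean below the 30th percentile (4.335) were left out of the tests.

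Differences were fitted with limma 3.58.1 in R 4.3.3 over all 6 samples and 15529 genes, with a mean per subset, an intensity trend in the variance prior, and 3 residual and 5.77 prior degrees of freedom. Tests were two-sided with Benjamini-Hochberg adjustment over all genes, and called at 0.05. The labels do not tie the replicate numbers to the litters, and p-values measure the spread between these samples. Same-numbered samples deviated together only weakly, with correlations over genes of 0.178 (CX3CR1high and CX3CR1int), 0.136 (CX3CR1high and CX3CR1low) and 0.146 (CX3CR1int and CX3CR1low). The fit with the replicate number as a block is given where it changes the call of a gene or the count of a list described here.

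Promoter windows were searched on both strands for the ISRE core. Members were given by sample where called in any fit, among the 6 largest differences of a comparison, or regulators. Outside that rule, Ifit2, Ifit3, Bst2, Mx1, Isg15, Usp18, Cmpk2, Oasl1 and Gbp3 were also given by sample. The other members were given by difference, range or count. Pathway genes were named where called or among the 2 largest differences between CX3CR1high and CX3CR1low cells in their list, besides the receptor genes Ifnar1 and Ifnar2. Members and lists were chosen with earlier results of these data known. Alternatives covered the dim filter, probe set choice, variance prior, centring, samples left out and a marker covariate.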

Additional observations from a re-analysis of the deposited data

How the results depend on the processing

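Counts of called members were 0 in all 4 comparisons under every alternative run, save with the replicate block, which called 1 between CX3CR1high and CX3CR1low (Rsad2) and 2 between CX3CR1high and CX3CR1int cells (Ifi209 and Trim30c). Gene counts over the whole array moved more. Between CX3CR1high and CX3CR1low cells 62 genes were called, 154 with the replicate block, 26 without the dim filter, 39 with only those subsets in the fit, 6 with the keratinocyte and fibroblast covariate, and 0 to 39 with a sample left out. Between CX3CR1high and CX3CR1int cells the count was 22, and 47 with the replicate block, 0 without the dim filter, 4 without the intensity trend, 0 with arrays centred, 14 with only those subsets, and 0 to 17 with a sample left out. Between CX3CR1int and CX3CR1low cells it was 1, and 0 with the replicate block, without the dim filter, without the trend, with centred arrays, with only those subsets and with any sample left out. Between replicate numbers it was 13, and 8 without the dim filter, 27 with centred arrays, and 0 to 5 with a sample left out. The cause of these moves was not tested.

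Medians of the members turned with the covariate, to 0.362 for CX3CR1high minus CX3CR1low and 0.475 for CX3CR1int minus CX3CR1low, and lay at -0.006 for CX3CR1high minus CX3CR1int. With a sample left out they ran from -0.505 to -0.115 for CX3CR1high minus CX3CR1low, from -0.40 to 0.015 for CX3CR1high minus CX3CR1int, and from -0.285 to 0.12 for CX3CR1int minus CX3CR1low. The median between replicate numbers was 0.437 with centred arrays, 0.351 with the covariate, and 0.34 to 0.415 with a sample left out. The covariate rose with the replicate number in every subset, so its effect and that of the number cannot be told apart. With the covariate the differences between CX3CR1high and CX3CR1low cells also turned for Ifi209 (1.06), Irf1 (0.10), Irf7 (0.17), Mx2 (0.99), Oas2 (0.36), Rsad2 (0.47), Stat2 (0.275) and Zbp1 (0.18), and those between CX3CR1int and CX3CR1low cells for Mx2 (0.615), Oas2 (0.30), Rsad2 (0.58) and Stat2 (0.086). With a sample left out, Rsad2 ran from -1.205 to 0.105 between CX3CR1high and CX3CR1int cells, turning without CX3CR1high replicate 1, and Ifi209 from -0.205 to 1.165 between CX3CR1int and CX3CR1low cells, turning without CX3CR1low replicate 1. Apart from the calls named, the replicate block changed no call of a member.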

Other observations

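Probe sets with several symbols held 2 of the genes not analysed above. The probe set of Oas1a and its neighbour Oas1g had log2 signals of 6.60, 6.81 and 6.60 in replicates 2 of the CX3CR1high, CX3CR1int and CX3CR1low subsets, against 5.82, 6.18 and 5.80 in replicates 1. All replicates 2 lay above all replicates 1, as for Ifit1 and Ifit2, and CX3CR1high and CX3CR1low samples were alike. The probe set of Gbp2 and Gbp2b, which encode GTPases that attack the vacuoles of pathogens, had 7.32, 7.88 and 7.59 in replicates 2, against 6.41, 6.97 and 7.35 in replicates 1. Its CX3CR1high samples lay below both CX3CR1low samples. A second probe set that carries Ifi204, together with Ifi211, stayed between 10.55 and 10.81 in all 6 samples and did not show the lower level in CX3CR1high samples that the probe set of Ifi204 alone gave. The dimmer of 2 probe sets of Ifi35 lay at 6.12 to 6.81. None of these values was tested.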
